A study of Mus musculus with 9 samples.

Results

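Thrombospondin-1 (Thbs1), prosaposin (Psap), which was reported as its inducer, and 5 genes of its reception at the cell surface (Cd36, Cd47, Sirpa, Calr and Lrp1) were followed in CD11b+ mouse bone marrow cells. They were chosen by name as the ligand, its inducer and its receptors, with no measured value in the rule, and number 7 of the 23337 genes counted. All 7 passed the filter on low counts, which left 12553 genes for testing. RNA-seq was made from 9 male C57BL/6 mice, 3 per group, aged 3 to 6 weeks when obtained. All mice received tail vein injections of 100 µl, 3 of them 48 h apart with either PBS (the PBS group) or EnzR exosomes, here EnzR EVs, at 10 µg of EV protein per injection. EnzR EVs are extracellular vesicles shed by the human prostate cancer line CWR-R1 after it was made resistant to the androgen receptor blocker enzalutamide. The last group received the same EnzR EVs and also HDL NPs, gold-cored particles that mimic high-density lipoprotein, (the HDL NP mice), in 3 injections that each came 24 h before one of EVs, with 1 µM given as their concentration in the sample labels (the methods state another value). These mice therefore had 6 injections and the mice of the other groups 3, and no group received HDL NPs without EVs. Marrow was taken 24 h after the last EV or PBS injection, and no mouse carried a tumour.

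Thrombospondin-1 is a secreted glycoprotein of the matrix and of platelet granules that inhibits angiogenesis and can activate latent TGF-β. On myeloid and endothelial cells it is bound by CD36, a scavenger receptor that also takes up fatty acids and oxidized lipoproteins, and by CD47, the "don't eat me" protein that engages SIRPα on phagocytes. Through its amino-terminal part it binds calreticulin on the cell surface, which signals together with LRP1, a large endocytic receptor. Prosaposin is the precursor of the saposins, activators of sphingolipid breakdown in lysosomes, and a fragment of it secreted by weakly metastatic tumours was described as a signal that raises thrombospondin-1 in marrow myeloid cells; what was measured here is the transcript of the marrow cells themselves.

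The genes lie on 5 chromosomes of GRCm38, the assembly called mm10, and all are protein coding. Thbs1 spans chr2:118111876-118127133 on the plus strand and Psap chr10:60277627-60302597 on the plus strand. Cd36 spans chr5:17781690-17888801 on the minus strand, Cd47 chr16:49800533-49915010 on the plus strand and Sirpa chr2:129592835-129632228 on the plus strand. Calr spans chr8:84841850-84846934 on the minus strand and Lrp1 chr10:127538161-127621148 on the minus strand. The annotation has a gene on the opposite strand within Thbs1 (Gm29233) and within Lrp1 (Gm16217). The library kit keeps strand, but whether the counting used it is not given in the sources used here, so reads of these partners may be included. Sirpa has close relatives, among them Sirpb1a, Sirpb1b and Sirpb1c, with which reads may be shared.

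Promoter sequences of the RefSeq table for GRCm38.p6 were at hand for 5 of the 7 genes; Thbs1 and Sirpa had no entry. Those of Psap and Cd36 are shown because these are the genes next to Thbs1 whose groups of mice did not overlap in at least 1 comparison. Each holds 250 bases before and 50 bases after an annotated start and includes the beginning of the first exon; the Psap window is chr10:60277378-60277677 (plus strand) and the Cd36 window chr5:17835847-17836146 (minus strand), the latter inside the span that GENCODE gives the gene. Capitals mark matches on either strand to TGANTCA, the letters bound by AP-1 (Fos and Jun proteins), or to AGGTCA, the letters recognized by many nuclear receptors.
Psap: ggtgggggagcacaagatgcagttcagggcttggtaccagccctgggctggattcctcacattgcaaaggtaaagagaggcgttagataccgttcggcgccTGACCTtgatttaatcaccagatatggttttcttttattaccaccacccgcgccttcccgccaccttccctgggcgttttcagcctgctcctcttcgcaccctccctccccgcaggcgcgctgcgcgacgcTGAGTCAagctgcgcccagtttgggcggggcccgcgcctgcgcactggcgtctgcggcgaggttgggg
Cd36: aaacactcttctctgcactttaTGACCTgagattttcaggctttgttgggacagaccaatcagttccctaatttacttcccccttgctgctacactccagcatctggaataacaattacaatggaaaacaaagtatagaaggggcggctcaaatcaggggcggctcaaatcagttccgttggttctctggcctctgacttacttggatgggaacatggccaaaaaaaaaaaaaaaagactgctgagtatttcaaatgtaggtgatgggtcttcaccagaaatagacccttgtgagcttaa
The table holds another Psap window, chr10:60284211-60284510, at a start inside the gene, which is not shown and has none of the motifs searched. In the Psap window shown the AP-1 letters began 18 bases and the nuclear receptor letters 149 bases before the start, and in Cd36 the nuclear receptor letters began 228 bases before it. Of the 32851 promoters in the table, 7.81% hold TGANTCA and 16.3% hold AGGTCA. The core of the element that TFEB binds in lysosomal genes, CACGTG, is in 7.15% of them. It was found in Calr (224 bases before the start) and in neither window shown. The promoters of Cd47 and Lrp1 held none of these 3 motifs. These are matches of letters and not shown binding sites.

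Total counts lay between 2575776 and 18110561 per library, and 3 counts, the floor used here, correspond to between 0.166 and 1.16 CPM (a gene's counts relative to all counts of its library). The defining CD11b myeloid markers, 8 of 8, were detected in every mouse, with a summed level between 11235 and 18612 TMM CPM (CPM scaled by edgeR's TMM factors). Ly6g is not among the genes of the counts, and 4 of 13 counted erythroid markers, Hba-a1, Hba-a2, Hbb-b1 and Hbb-b2, stood at 0 in every library. Reads of ribosomal RNA, counted as Rn45s, made up 20.3%, 42.7% and 14.2% of PBS replicate 1, EnzR EVs replicate 1 and EnzR EVs replicate 3, respectively, and 0.657% to 2.87% in the remaining 6 libraries. The summed level of 12 neutrophil markers was 57022, 32749 and 68890 TMM CPM in those 3 libraries and between 83785 and 147140 in the other 6. The lower sums came with S100a8, S100a9 and Mmp8, which were lowest in these 3 libraries, whereas Mpo was highest there and the other 8 markers overlapped. Of all tested genes 33.4% separated with these 3 libraries, and values without them are given for Psap, Cd36 and Cd47 and for most of the listed genes named that did so.

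Thbs1 was the gene of the set whose EnzR EV mice lay closest together and farthest from the PBS mice. Its level was 1073, 1799 and 1737 TMM CPM in PBS replicates 1 to 3 and 559.7, 628 and 582 TMM CPM in EnzR EVs replicates 1 to 3. With HDL NPs it was 1012, 1121 and 1446.5 TMM CPM. Every EnzR EV mouse lay below every mouse of the other groups, and Rn45s shares in these 3 libraries ran from 1.15% to 42.7%. In the PBS group the library rich in Rn45s, replicate 1, was the lowest. The log2 ratio of EnzR EVs to PBS was -0.91 among the 3 libraries rich in Rn45s, with a single PBS mouse. Among the others it was -1.49, with a single EnzR EV mouse. The means were 1537 ± 402.5, 589.7 ± 34.8 and 1193 ± 226 TMM CPM (SD, n = 3) for PBS, EnzR EVs and EnzR EVs + HDL NPs.

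**Figure D1:**
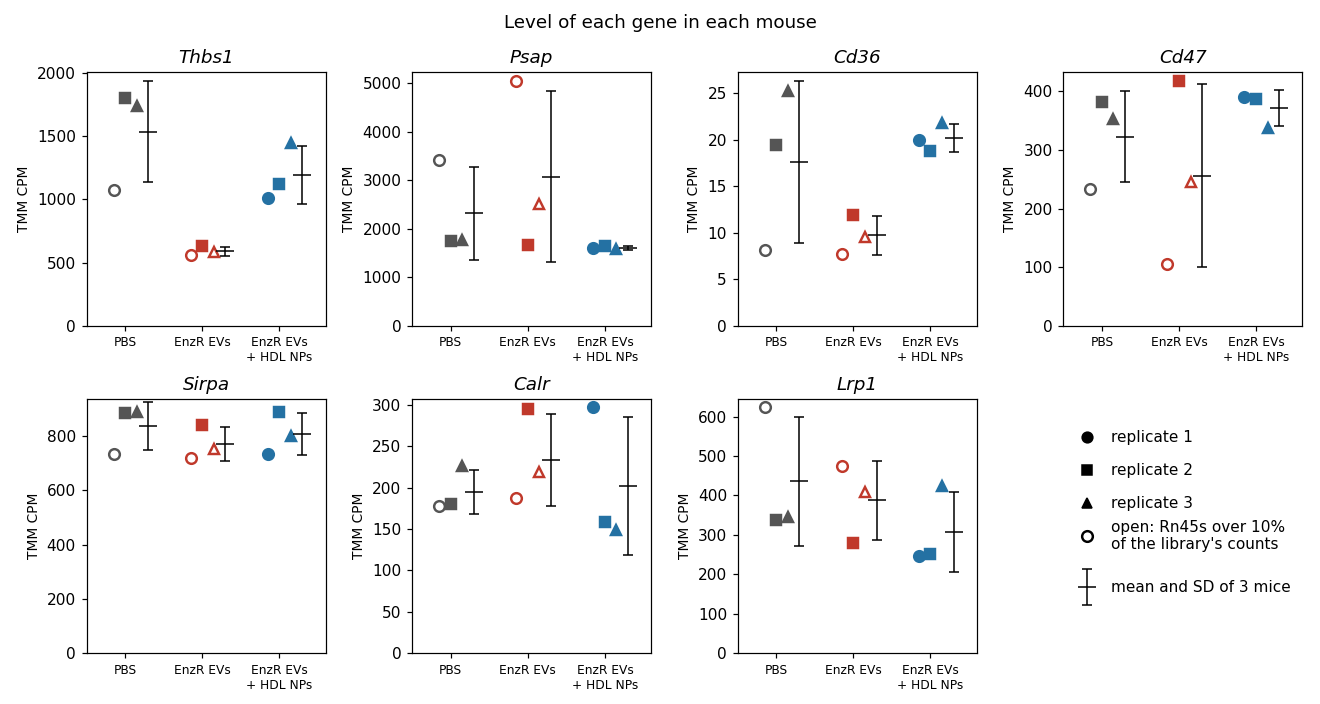
TMM CPM of each gene in each of the 9 mice, 1 panel per gene with a linear axis from 0. Marker shapes give the replicate number, open markers the 3 libraries with over 10% Rn45s, and bars the mean and SD of 3 mice; the EnzR EV mice sit together at 559.7 to 628 for Thbs1, whereas for Psap and Cd47 the open markers stand apart from the filled ones.

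Psap, the inducer, had the highest mean TMM CPM of the set in each group, though Thbs1 (1799) stood above it in PBS replicate 2. Its levels differed little between groups once the libraries rich in Rn45s were set aside, which leaves a single EnzR EV mouse. In PBS replicates 1 to 3 Psap stood at 3424, 1757 and 1769 TMM CPM. In the EnzR EV mice it stood at 5044, 1654 and 2518 TMM CPM, and with HDL NPs at 1596, 1646 and 1574.5 TMM CPM. The HDL NP mice were all below the lowest mouse of the other groups, and the EnzR EV mice enclosed the PBS mice. In the 3 libraries with over 10% Rn45s Psap lay between 2518 and 5044 TMM CPM, and in the other 6, which hold mice of all 3 groups, between 1574.5 and 1769. Among these 6 the log2 ratio of EnzR EVs to PBS was -0.09 and that of EnzR EVs + HDL NPs to EnzR EVs was -0.04. The share of Rn45s was higher and the summed level of the neutrophil markers lower in the 3 libraries where Psap was high. Of the 12 markers 3 (S100a8, S100a9 and Mmp8) were lowest there, Mpo was highest and 8 overlapped. The part of Rn45s and of these markers in the level of Psap was not tested.

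Cd36, the class B scavenger receptor, had the lowest level of the set. PBS mice had 8.10, 19.5 and 25.3 TMM CPM, EnzR EV mice 7.68, 11.9 and 9.58, and mice given HDL NPs as well 19.98, 18.8 and 21.8. All 3 mice of the last group lay above all 3 EnzR EV mice, whereas PBS replicate 1 fell among the EnzR EV mice. The smallest value rests on 14 counts (5.44 CPM before TMM scaling, exact 95% binomial interval 2.97 to 9.12), and the interval covers counting error only. The 3 libraries with over 10% Rn45s were also the 3 lowest for Cd36 (7.68 to 9.58 TMM CPM, against 11.9 to 25.3 in the other 6). Within them the log2 ratio of EnzR EVs to PBS was 0.09, and within the other 6 libraries it was -0.91, with a single EnzR EV mouse on that side. CD36 is also made by platelets, macrophages and endothelial cells. The 15 platelet and megakaryocyte markers summed to 45.1 to 168.6 TMM CPM in PBS mice, 51.6 to 123 in EnzR EV mice and 63.7 to 98.7 with HDL NPs, with 13 of them detected in every mouse. The 13 macrophage markers summed to 1258 to 2294, 1102 to 1350 and 1345 to 1475 TMM CPM in the same order, and the 11 endothelial markers to 16.7 to 46.1, 18.1 to 30.1 and 27.0 to 29.8, with 8 of the last detected in every mouse. Platelets also hold much Thbs1. The cells had been isolated by positive selection for CD11b, which is meant to leave out cells without it, and the part of these cells in the levels of Thbs1 and Cd36 was not tested. In bulk samples such as these, fewer cells of a type and less RNA per cell cannot be told apart.

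Cd47 and Sirpa encode the 2 sides of the same contact. Cd47 stood at 234, 382 and 352 TMM CPM in PBS mice, at 104.8, 417 and 246 in EnzR EV mice and at 391, 387 and 337 with HDL NPs. The EnzR EV group held both the lowest and the highest mouse, so its mean of 256 ± 156.5 TMM CPM (SD, n = 3) spans the other groups. Cd47 separated with the Rn45s share of the library, as did Psap but in the opposite direction. It lay between 104.8 and 246 TMM CPM where Rn45s exceeded 10% and between 337 and 417 elsewhere, and the part of Rn45s in the result was not tested. Sirpa was the steadiest gene of the set, at 735, 887 and 889 TMM CPM in PBS mice, 719, 840.4 and 752 in EnzR EV mice and 735, 889 and 799 with HDL NPs. Its coefficient of variation within groups averaged 9.41%, against 17.0% for Thbs1, 26.3% for Cd36 and for Calr, 31.1% for Cd47, 32.0% for Lrp1 and 33.7% for Psap. The median of all tested genes was 22.3%, and 8.15% of them varied less than Sirpa.

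Calr, the chaperone that reaches the cell surface as a binding site for thrombospondin-1, stood at 178, 181 and 226 TMM CPM in PBS mice. EnzR EV mice had 187, 296 and 219 TMM CPM, and mice given HDL NPs 298, 159 and 149. The last group held both extremes of all 9 mice, with replicate 1 nearly level with the highest EnzR EV mouse. Lrp1, the signalling partner of calreticulin, stood at 623, 338 and 345 TMM CPM in PBS mice, 475, 279 and 408 in EnzR EV mice and 247, 250.4 and 424 with HDL NPs. PBS replicate 1 and the third HDL NP mouse stood above the rest of their groups for Lrp1, and all groups overlapped for both genes.

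Between EnzR EV and PBS mice the question was whether the vesicles alter the transcripts of marrow myeloid cells. Thbs1 was 2.61-fold lower (log2 fold change -1.38, SE 0.230, 95% interval -1.89 to -0.87) with an adjusted p of 0.449 by edgeR, above the threshold of 0.05. Its unadjusted edgeR p was 0.000107, and the 2 groups of mice did not overlap. The two-sided exact permutation test gave p = 0.10, the smallest that 3 mice against 3 allow. DESeq2 gave Thbs1 an adjusted p of 0.000124, past the threshold, and limma's voom 0.251.

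None of the receptors nor Psap reached the adjusted threshold in that comparison by edgeR, DESeq2 or voom. Cd36 was 1.78-fold lower (log2 fold change -0.83, SE 0.352, 95% interval -1.61 to -0.05, edgeR adjusted p = 0.928), with groups that overlapped (two-sided exact permutation test, p = 0.3). limma's voom with sample quality weights, which was added after seeing the data, gave Cd36 a log2 fold change of -1.11 with an adjusted p of 0.021, past the threshold, as were 15.9% of all genes and 2 of the 7 (Cd36 and Thbs1) with these weights. With 1 library left out the value of Cd36 ran from -1.15 (without PBS replicate 1) to -0.48 (without PBS replicate 3), so it depends on which PBS mice are included. Psap had a log2 fold change of 0.41 (95% interval -0.45 to 1.26), which became -0.15 without EnzR EVs replicate 1 and -0.09 without the 3 libraries rich in Rn45s. Cd47 had -0.33 (-1.18 to 0.53), and 0.19 without those 3 libraries. The intervals of Sirpa (log2 fold change -0.12, -0.48 to 0.24), Calr (0.27, -0.35 to 0.88) and Lrp1 (-0.17, -0.86 to 0.52) contain 0. The interval of Sirpa was the narrowest of the set.

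By edgeR 0 of the 12553 tested genes passed the adjusted threshold in this comparison (0%), and 0 of the 7 members. DESeq2 called 11 genes (0.0876%), Thbs1 among them, and voom 0. The unadjusted edgeR p was under 0.05 for 436 genes (3.47%) and for 2 of the 7, Thbs1 and Cd36. Groups of mice that did not overlap were found for 999 genes (7.96%) and for 1 of the 7, Thbs1. With the replicate number as a replicate block edgeR called 1 gene, Ifit1, which is no member and is named after its value was seen.

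HDL NP mice were compared with EnzR EV mice to ask what the particles alter. Thbs1 and Cd36 were higher and Psap lower in the mice that received the particles, each without overlap between the groups. Thbs1 was 2.02-fold higher (log2 fold change 1.02, SE 0.228, 95% interval 0.51 to 1.52), with an edgeR adjusted p of 0.461 and DESeq2's at 0.0791. Cd36 was 2.00-fold higher (log2 fold change 1.00, SE 0.351, 0.22 to 1.78, edgeR adjusted p = 0.461). Psap was 1.91-fold lower (log2 fold change -0.94, SE 0.390, -1.80 to -0.07, edgeR adjusted p = 0.461). The two-sided exact permutation test gave p = 0.10 for each of these 3 genes, its lower limit.

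These 3 differences did not fare alike when the libraries rich in Rn45s were left out, which leaves 1 EnzR EV mouse that is assumed to vary like the others. The log2 fold change was then 0.92 for Thbs1 and 0.75 for Cd36 but -0.05 for Psap. Psap also moved to -0.39 without EnzR EVs replicate 1 alone. With the Rn45s class of the library as a term of the fit the values were 0.73, 0.47 and -0.12. Cd47 had a log2 fold change of 0.53 (95% interval -0.33 to 1.39) in all 9 libraries and -0.17 without those libraries. Sirpa (0.07, -0.29 to 0.43), Calr (-0.21, -0.83 to 0.40) and Lrp1 (-0.33, -1.02 to 0.36) had intervals that contain 0 and overlapping mice.

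In this comparison edgeR also called 0 of 12553 genes (0%), DESeq2 1 gene (0.00797%) and voom 0. With sample quality weights voom called 5.2% of the genes and 1 of the 7, Thbs1. The 1 gene of DESeq2 is Tspo, which is no member and is named after its value was seen. The unadjusted edgeR p was under 0.05 for 1325 genes (10.6%) and for 3 of the 7. Groups did not overlap for 2205 genes (17.6%) and for 3 of the 7, and the 3 are the same in both counts: Thbs1, Cd36 and Psap. As the EnzR EV mice serve in this comparison and in the one with PBS, the opposite signs of Thbs1 and Cd36 in the 2 comparisons are not independent of each other.

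**Figure D2:**
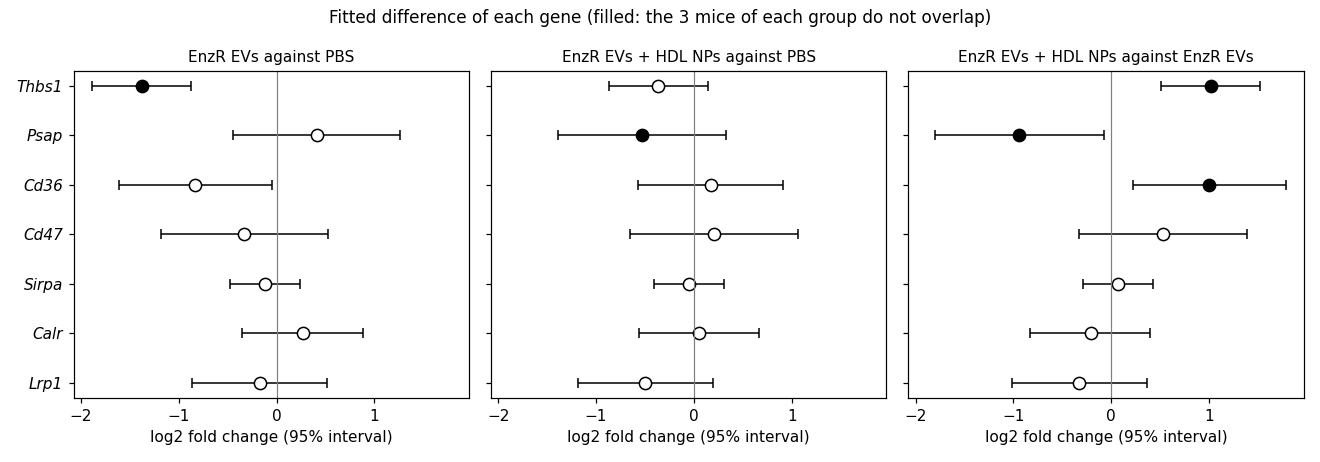
Fitted log2 fold change of each gene from edgeR (points) with its 95% interval (bars) in the 3 comparisons; a filled point means that the 3 mice of each group do not overlap. The intervals of Thbs1 and Cd36 lie below 0 for EnzR EV mice against PBS mice and above 0 for HDL NP mice against EnzR EV mice, where Psap lies below 0, and all intervals of HDL NP mice against PBS mice contain 0.

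Mice given EnzR EVs + HDL NPs and PBS mice were compared to see how far the levels differed from those without vesicles. The log2 fold change was -0.37 for Thbs1 (95% interval -0.87 to 0.14), 0.17 for Cd36 (-0.57 to 0.91), 0.20 for Cd47 (-0.65 to 1.06), -0.05 for Sirpa (-0.41 to 0.31), 0.05 for Calr (-0.56 to 0.66) and -0.50 for Lrp1 (-1.19 to 0.19). The interval of Thbs1 allows a level of 0.549 to 1.10 times that after PBS, so equality was not shown. Lrp1 ran from -0.81 (without HDL NP replicate 3) to -0.15 (without PBS replicate 1) with 1 library left out. Psap had -0.53 (-1.39 to 0.33) and was the only member whose groups did not overlap. Without the libraries rich in Rn45s the log2 fold change was -0.13 for Psap, -0.15 for Cd36, which thus changed sign, and 0.02 for Cd47. All 7 adjusted p-values were 1 by edgeR, which called 0 genes (0%), while DESeq2 called 8 (0.0637%), voom 0 and voom with the weights 0.0797%, none of them a member. The unadjusted edgeR p was under 0.05 for 268 genes (2.13%) and for 0 of the 7, and groups did not overlap for 1653 genes (13.2%).

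Levels of different genes were compared as TMM CPM per kilobase of annotated exon. In PBS mice the order was Psap (844), Thbs1 (253), Sirpa (170.5), Calr (67.7), Cd47 (51.4), Lrp1 (24.6) and Cd36 (4.91 TMM CPM per kilobase). Only the ranges of Thbs1 and Sirpa overlapped between neighbours there, and Thbs1 was above Sirpa in all 3 mice. With HDL NPs the order of the means was the same, though Calr was above Cd47 in only 1 of 3 mice, with Psap at 585, Thbs1 at 196.5 and Sirpa at 164, and the ranges of Thbs1 and Sirpa and those of Calr (70.2) and Cd47 (59.2) overlapped. In EnzR EV mice Sirpa (157) stood above Thbs1 (97.1) in 3 of 3 mice without overlap, and Thbs1 was next to Calr (81.2), with which it overlapped, though it was above Calr in each mouse. Cd47 (40.8) and Lrp1 (21.9) overlapped there too, as did Calr and Cd47. The lengths were exon unions, all annotated exon bases of a gene. By these the ligand was above Cd36, Cd47, Calr and Lrp1 per kilobase in all 9 mice. The exon union of Calr is 2880 bases and its longest transcript 2184. With the longest transcripts Calr would stand above Thbs1 in EnzR EVs replicates 2 and 3. Thbs1 was above Sirpa, the partner of its receptor Cd47, in the 6 mice of the PBS and HDL NP groups by exon unions. It was below Sirpa in the 3 EnzR EV mice. The exon unions of Thbs1 and Sirpa are 6073 and 4911 bases, and their longest transcripts 5848 and 3982. With the longest transcripts Sirpa would stand above Thbs1 in PBS replicate 1 and in HDL NP replicates 1 and 2 as well. Psap was highest and Cd36 lowest in all 9 mice.

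**Figure D3:**
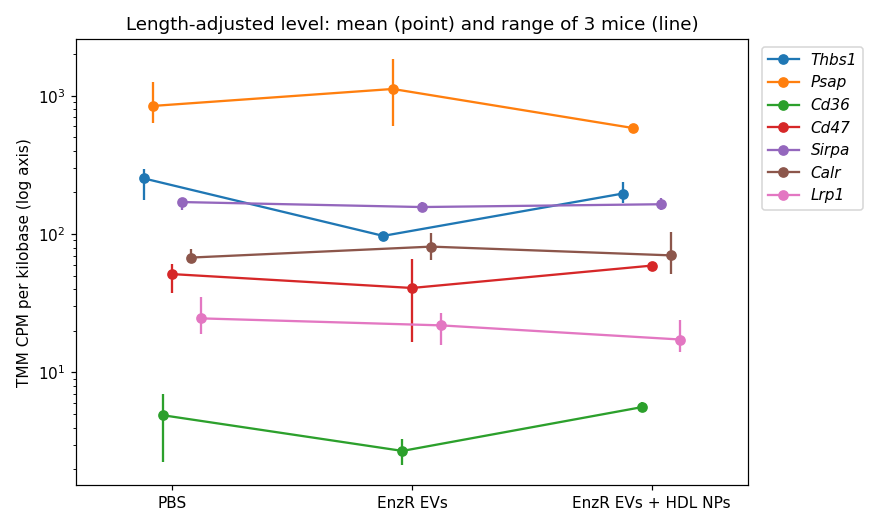
Mean level per kilobase of each gene in each group (points joined by lines) on a log axis, with vertical lines for the range of 3 mice. Thbs1 crosses below Sirpa in the EnzR EV group (97.1 against 157 TMM CPM per kilobase) and stands above it in the other groups, with Psap highest and Cd36 lowest throughout. Lengths are exon unions, and the order of Thbs1 against Sirpa and Calr in single mice depends on the length used.

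Over the 9 mice the genes of the set fell into different company, described here by Pearson's r of log2 TMM CPM, with no test. The points share the libraries and their Rn45s content. For Thbs1 the 8 most alike genes of 12552 were Il10ra (r = 0.95), Odz4 (0.95), B930018H19 (0.94), Lpin1 (0.94), Abca9 (0.93), Ptgdr (0.93), Ptgs2 (0.93) and Abca6 (0.92). Il10ra, the ligand-binding chain of the interleukin-10 receptor, had 96.5, 116 and 115 TMM CPM in PBS mice, 62.0, 77.4 and 70.5 in EnzR EV mice and 93.7, 100.7 and 95.6 with HDL NPs. Ptgs2, the inducible cyclooxygenase, had 91.5, 121 and 119, then 52.1, 64.9 and 48.7, then 78.7, 127 and 112 TMM CPM in the same order. Odz4, B930018H19 and Ptgdr were at most 3.11 TMM CPM in any mouse, so their likeness rests on few counts. Cd36 was the receptor most like Thbs1 (r = 0.78), yet it ranked 154 among all genes. Sirpa (r = 0.60) and Cd47 (0.53) followed, and Psap had r = -0.53, Calr -0.36 and Lrp1 -0.11.

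Psap was most like Metrn (r = 1.00), Lemd2 (0.99) and Rnf220 (0.99), of which none is a lysosomal gene, and most unlike Cd47 within the set (r = -0.96). Metrn, for a secreted factor, had 22.4, 9.03 and 9.67 TMM CPM in PBS mice and 35.1, 8.52 and 13.8 in EnzR EV mice, again high where Rn45s was high. Cd47 was most like Cdkal1, Med6 and Sept7 (each r = 1.00), whose lowest values were likewise in EnzR EVs replicate 1. Cdkal1 and Med6 were at 1.1 TMM CPM in that library, below the floor of 3 counts. Cd36 was most like Mcts2 (0.98), C3ar1 (0.98), the receptor of a complement fragment, and Clec4g (0.97). Clec4g was at most 1.29 TMM CPM and at 0 in 2 libraries, and Mcts2 and C3ar1 were at most 6.85, so these rest on few counts. Sirpa was most like Rab43 (0.97), Rhof (0.97) and Slc11a1 (0.96), a metal transporter of phagosomes. Calr was most like Nudt5 (0.97), Cct3 (0.94), a chaperonin subunit, and Mthfd1 (0.93), an enzyme of folate metabolism. Lrp1 was most like Ahdc1, Arfgap2 and Tcf7l2 (each 0.97).

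**Figure D4:**
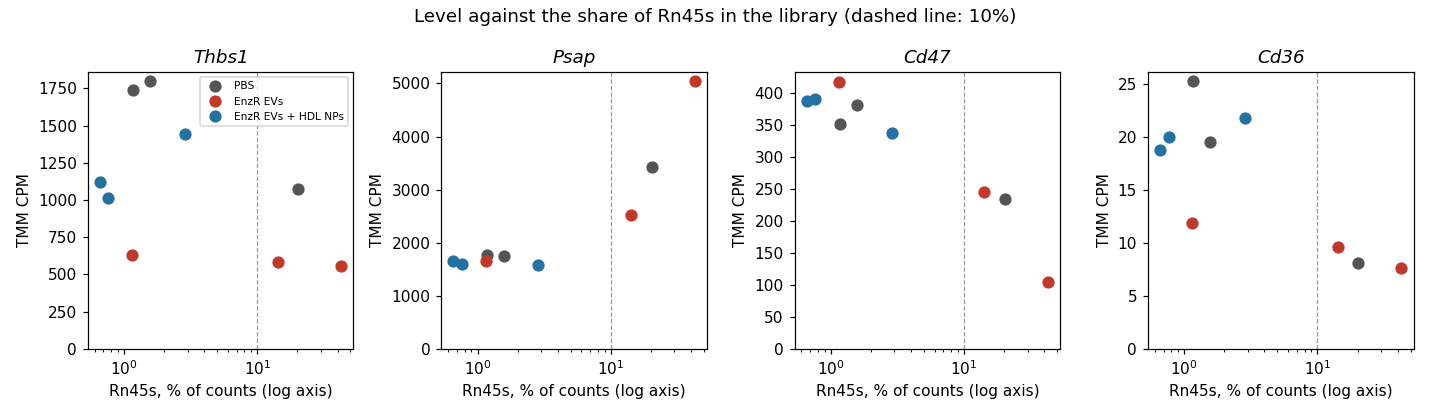
TMM CPM of Thbs1, Psap, Cd47 and Cd36 (linear axes from 0) against the percent of counts on Rn45s (log axis), 1 point per mouse in its group's colour, with a dashed line at 10%. Psap is at 2518 TMM CPM or above and Cd47 at 246 or below in the 3 libraries to the right of the line, whereas Thbs1 in EnzR EV mice lies between 559.7 and 628 on both sides and in PBS mice at 1073 to the right and at 1737 and 1799 to the left.

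Genes that work with each receptor were taken from lists written by hand, and none of their members passed the adjusted threshold by edgeR in any comparison. Of the partners of Cd36 (kinases of the Src family, Toll-like receptors, lipid handling and other scavenger receptors) 18 of 18 were tested. Between EnzR EV and PBS mice 16 of the 18 had a log2 fold change below 0, with a median of -0.29, against -0.03 over all tested genes, and 2 had an unadjusted edgeR p under 0.05, both lower. Over all genes 53.5% were below 0 and 3.47% had such a p. These were Fabp4, a fatty acid carrier (-1.08, SE 0.461), and Tlr2, which signals together with CD36 (-0.47, SE 0.21). Between the HDL NP and EnzR EV mice 15 of 18 were above 0 (52.8% of all genes) with a median of 0.30 (0.03 over all genes), and the 2 with the smallest p, the only ones with an unadjusted edgeR p under 0.05 (10.6% of all genes), were Fabp4 (1.16, SE 0.459) and Msr1, another scavenger receptor (0.54, SE 0.242). Fabp4 stood at 4.93, 9.38 and 13.5 TMM CPM in PBS mice, 0.549, 4.84 and 6.03 in EnzR EV mice and 9.51, 9.78 and 10.8 with HDL NPs, so that it, like Cd36, was without overlap between the last groups and lower in PBS replicate 1 than in the other PBS mice. Its 0.549 TMM CPM in EnzR EVs replicate 1 is 1 count, below the floor of 3. Without the 3 libraries rich in Rn45s the list lost most of its common direction in these comparisons. For EnzR EV mice against PBS mice 11 of 18 were below 0, with a median of -0.08 (0.00 over all genes). For HDL NP mice against EnzR EV mice 8 of 18 were above 0, with a median of -0.06 (0.01 over all genes). Lyn, Tlr4, Tlr6, Nr1h3, Olr1 and Cd68 were lowest in those 3 libraries. In the last comparison Tlr4 moved from 0.61 to -0.06 and Msr1 from 0.54 to 0.11 without them, and Fabp4 from 1.16 to 1.05. Between the HDL NP and PBS mice 9 of 18 were below 0, with a median of 0.02 (-0.01 over all genes). Without the 3 libraries 13 of 18 were below 0 there (50.2% of all genes), with a median of -0.13 (0.00 over all genes). Src (-1.11, SE 0.513) and Tlr2 (-0.38, SE 0.209) had the smallest unadjusted edgeR p for HDL NP mice against PBS mice. Src was at most 4.41 TMM CPM in any mouse, with as few as 6 counts.

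Of the genes of Cd47 and Sirpa signalling 11 of 12 were in the counts and all 11 were tested; none had an unadjusted edgeR p under 0.05 in any comparison, against 3.47%, 2.13% and 10.6% of all genes. The smallest were those of Sirpb1b (log2 fold change -0.60, SE 0.507), a relative of Sirpa, and Myh9 (0.22, SE 0.243), a myosin that drives engulfment, for EnzR EV mice against PBS mice. For HDL NP mice against EnzR EV mice they were those of the adaptor Fyb (0.41, SE 0.195) and of Ptpn6 (0.60, SE 0.422), the phosphatase SIRPα recruits. For HDL NP mice against PBS mice they were those of Fyb (0.27, SE 0.194) and of Qpctl (-0.24, SE 0.283), the enzyme that modifies CD47 for SIRPα binding. Of these, Sirpb1b and Ptpn6 were lowest and Myh9 and Qpctl highest in the 3 libraries rich in Rn45s, and without those libraries the values were 0.05 for Sirpb1b, -0.05 for Myh9, -0.09 for Ptpn6 and 0.02 for Qpctl.

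Around Calr and Lrp1, 21 of 24 genes of chaperones and of the uptake of dying cells were tested. Axl, a receptor tyrosine kinase that binds dying cells, had the smallest unadjusted edgeR p for EnzR EV mice against PBS mice (log2 fold change -0.78, SE 0.186) and for HDL NP mice against PBS mice (-0.72, SE 0.184). It stood at 153.7, 148 and 221 TMM CPM in PBS mice, 110.3, 100.3 and 95.9 in EnzR EV mice and 117.8, 97.3 and 103 with HDL NPs. Both groups given EVs lay below the PBS mice for Axl, unlike Thbs1, whose HDL NP mice overlapped the PBS mice. Its relative Mertk followed in the first comparison (-0.96, SE 0.353) and C1qa in the second (-0.56, SE 0.284). Between the HDL NP and EnzR EV mice C1qb (-1.42, SE 0.439), a complement subunit, and Hspa5 (-0.45, SE 0.19), a chaperone that works with calreticulin, had the smallest unadjusted p. C1qb stood at 191 TMM CPM in EnzR EVs replicate 1 against 45.9 and 66.9 in the other EnzR EV mice, and its log2 fold change was -0.61 without that library. C1qa (-0.39) and C1qc (0.08), which encode the other chains of the complex, had smaller differences there. Axl, Mertk, C1qa and C1qb are also on the list of macrophage markers. In all, 0 higher and 3 lower, 0 and 1, and 0 and 2 genes of this list had an unadjusted edgeR p under 0.05 in the 3 comparisons, in the order EnzR EV mice against PBS mice, HDL NP mice against PBS mice and HDL NP mice against EnzR EV mice. Over all genes 3.47%, 2.13% and 10.6% had such a p. Without the 3 libraries rich in Rn45s, Axl had -0.88 and -0.80 and Mertk, which was lowest in those 3, had -0.89.

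Of 27 lysosomal and sphingolipid genes that belong with Psap 25 were tested, and their medians of -0.15, -0.10 and 0.06 in the same order set them beside -0.03, -0.01 and 0.03 over all genes. Only 1 of 25 had an unadjusted edgeR p under 0.05, in HDL NP mice against EnzR EV mice, where 10.6% of all genes did. It was Gla, which encodes a lysosomal galactosidase (-1.27, SE 0.477), and its 120.7 TMM CPM in EnzR EVs replicate 1 was the highest of 9 mice, as for Psap. Tfeb, a transcription factor of lysosomal genes, came next there (-0.44, SE 0.213). The smallest p for EnzR EV mice against PBS mice were those of Ctsb (-0.39, SE 0.223) and Gla (0.69, SE 0.474), and Grn (-0.24, SE 0.175) was among the smallest for HDL NP mice against PBS mice. Gla and Tfeb were highest in the 3 libraries rich in Rn45s. In all 9 libraries 18, 18 and 10 of the 25 were below 0 in the same order, against 53.5%, 51.1% and 47.2% of all genes. Without the 3 libraries rich in Rn45s 12, 22 and 22 of the 25 were below 0, against 50.8%, 50.2% and 49.2% of all genes. The medians of the list were then 0.00, -0.10 and -0.13. Without those libraries Gla had -0.16 for HDL NP mice against EnzR EV mice and 0.01 for EnzR EV mice against PBS mice. Tfeb had -0.12 in the former and Ctsb -0.15 in the latter.

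Of 15 transcription regulators of Thbs1 14 were tested. Fos, a subunit of AP-1, stood at 1172, 1325.5 and 1331.5 TMM CPM in PBS mice, 675.5, 985 and 741 in EnzR EV mice and 701.5, 1112 and 901.5 with HDL NPs, so both EV groups lay below the PBS mice (log2 fold changes of -0.67, SE 0.215, and -0.50, SE 0.214). Egr1, an immediate early factor, was second for EnzR EV mice against PBS mice (-0.80, SE 0.288) and Jun first for HDL NP mice against PBS mice (-0.95, SE 0.36). Between the HDL NP and EnzR EV mice Id1 (-0.64, SE 0.243) and Srf (-0.64, SE 0.245) had the smallest unadjusted edgeR p, and 4 of the 14 (these, Myc and Usf1), all lower, were under 0.05, against 10.6% of all genes, of which 875 were lower and 450 higher. All 4 were highest in EnzR EVs replicate 1, only Id1 was without overlap between the groups, and all 4 were higher in the 3 libraries rich in Rn45s than in the other 6. Without those libraries their log2 fold changes were -0.23 for Id1, -0.10 for Srf, -0.04 for Myc and -0.03 for Usf1. Jun separated in the same way and moved to -0.39, Egr1 moved to -0.26 and Fos to -0.43 and -0.55 in the comparisons given above.

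In the TGF-β pathway, 18 of 23 genes were tested. The receptor Tgfbr2 (-0.36, SE 0.151) and the co-receptor Eng (-0.60, SE 0.279) led for EnzR EV mice against PBS mice by unadjusted edgeR p. Tgfb1 itself (-0.43, SE 0.214) and Eng (-0.38, SE 0.258) led for HDL NP mice against PBS mice. The transducer Smad2 (0.36, SE 0.155) was among the leading genes for HDL NP mice against EnzR EV mice. Among 20 other binding partners of thrombospondin-1 17 were tested, with medians of -0.06, -0.05 and -0.01 in the 3 comparisons. Only the integrin chain Itga4 had an unadjusted edgeR p under 0.05 (HDL NP mice against EnzR EV mice, 0.41, SE 0.184; 1 of 17, against 10.6% of all genes), followed by Sdc3 (-0.41, SE 0.218). The integrin chains Itgav (-0.22, SE 0.157) and Itgb2 (0.24, SE 0.188) had the smallest p for EnzR EV mice against PBS mice. For HDL NP mice against PBS mice the syndecans Sdc3 (-0.47, SE 0.216) and Sdc1 (-1.01, SE 0.645) did. Sdc1 was at most 3.84 TMM CPM in any mouse, with as few as 6 counts. Without the 3 libraries rich in Rn45s, Itga4 moved to 0.19 and Sdc3 to -0.04 for HDL NP mice against EnzR EV mice and Itgb2 to 0.01 for EnzR EV mice against PBS mice. Tgfb1 was highest and Smad2 lowest in those 3 libraries, and their values without them were -0.24 and 0.27. Over all lists 40 of the 124 tested genes (32.3%) separated with these libraries, near the 33.4% of all genes. Of the other thrombospondins, Thbs2, Thbs3, Thbs4 and Comp, 0 of 4 passed the filter. Their counts were at most 5, 11, 4 and 7 in any library, so Thbs1 was the thrombospondin detected above that filter in these cells.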

How the data were processed

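RNA of CD11b+ bone marrow cells (200 ng of total RNA, rRNA depleted, stranded kit, single-end reads of 75 bp) gave 1 library per mouse. The authors deposited raw counts per gene, without normalization. The submitters' processing notes name cutadapt 1.13, STAR, HTSeq 0.6.1p1, DESeq2 and mm10. Groups came from the labels of the samples. The genes and lists were chosen with earlier results of these data known.

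Counts were fitted in R 4.3.3 with edgeR 4.0.16 (TMM, its default filter, robust quasi-likelihood test, all 9 libraries, biological coefficient of variation 0.259, Benjamini-Hochberg adjustment over 12553 genes, threshold 0.05). Levels are TMM CPM, and log2 CPM used a prior count of 2. Exact permutation tests (two-sided) compared single members between groups. DESeq2 1.42.0 and voom of limma 3.58.1 were alternatives, beside other normalizations, filters, libraries and a replicate block. The fits were tested on simulated counts with the same spread for every gene and no separation of libraries by Rn45s. That test cannot show how often the tools call genes wrongly in these data. Lengths were exon unions of GENCODE M21 (GRCm38), matched by symbol for 89.6% of the genes. Named genes were the 7 members, the tested genes most like each (8 for Thbs1, 3 for the others) and, from each list, every gene called and the 2 with the smallest p in each comparison; some of these are not reported here.

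Depth gives floors of 3 counts, and intervals cover counting error only. PBS replicates 2 and 3, the most similar pair, had a chi-square of 4.48 for each gene, more than sampling noise gives. Whether replicate numbers pair the mice was checked by the correlation of their deviations from group means. Between EnzR EVs and PBS it was 0.47, 0.49 and 0.13 for numbers 1 to 3, each over 0.1, but EnzR EVs replicate 2 had 0.43 with PBS replicate 3 and EnzR EVs replicate 3 had 0.16 with PBS replicate 2, PBS and EnzR EVs replicates 1 are both rich in Rn45s, and no label gives a reason for pairing; all values are from fits without pairing unless the block is named. It was 0.06, 0.29 and -0.18 for EnzR EVs + HDL NPs against PBS and -0.04, 0.21 and 0.12 for EnzR EVs + HDL NPs against EnzR EVs.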

Additional observations from a re-analysis of the deposited data

How the results depend on the processing

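The direction of Thbs1 was the same under all 21 alternatives in each comparison. Its log2 fold change ran from -1.59 to -1.20 for EnzR EVs against PBS (adjusted p from 0.000124 to 1), from -0.57 to -0.23 for EnzR EVs + HDL NPs against PBS, and from 0.73 to 1.24 for EnzR EVs + HDL NPs against EnzR EVs (adjusted p from 0.0474 to 1). It passed the threshold with DESeq2 (-1.36) and with voom and sample quality weights (-1.56) for EnzR EVs against PBS, and with the weights (1.02) for EnzR EVs + HDL NPs against EnzR EVs. With the replicate block its values were -1.35, -0.35 and 1.00, with no call; the block changed no call of a member. Direction and side of the threshold also held for Cd36 and Psap between the HDL NP and EnzR EV mice, while Psap came down to -0.05 there.

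Calls for EnzR EVs against PBS numbered 11 with DESeq2, 1 (Ifit1) without a filter, with the replicate block or with the Rn45s class as a term, 10 without the 3 libraries rich in Rn45s, 1990 with quality weights, and 0 to 2 with 1 library left out (2, Ifit1 and Lipg, without PBS replicate 1). For EnzR EVs + HDL NPs against PBS they numbered 8 with DESeq2 and 10 with the weights. For EnzR EVs + HDL NPs against EnzR EVs they numbered 1 with DESeq2, 1 (Lipg) on 6 libraries or without the 3 libraries, 653 with the weights and 0 to 1 with 1 library left out. Ifit1, Lipg and Tspo were named after their values were seen. The weights, the Rn45s class and leaving out the 3 libraries were chosen after seeing the data.

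These values reversed, and the cause was not tested. With 1 library left out, Psap ran from -0.15 to 0.79, Cd47 from -0.84 to 0.04 and Lrp1 from -0.34 to 0.17 for EnzR EVs against PBS. Cd36 ran from -0.15 to 0.51, Sirpa from -0.14 to 0.02 and Calr from -0.33 to 0.23 for EnzR EVs + HDL NPs against PBS, and Sirpa from -0.03 to 0.12 for EnzR EVs + HDL NPs against EnzR EVs. Without the 3 libraries Psap was -0.09 and Cd47 0.19 for EnzR EVs against PBS, Cd36 -0.15 and Calr -0.01 for EnzR EVs + HDL NPs against PBS, and Cd47 -0.17, Sirpa -0.06 and Lrp1 0.13 for EnzR EVs + HDL NPs against EnzR EVs. With the Rn45s class as a term, Cd36 was -0.03, Cd47 -0.08 and Calr -0.07 for EnzR EVs + HDL NPs against PBS, and Sirpa -0.08 and Lrp1 0.21 for EnzR EVs + HDL NPs against EnzR EVs. With quality weights Lrp1 was 0.18 for EnzR EVs against PBS, and Cd36 -0.10 and Calr -0.12 for EnzR EVs + HDL NPs against PBS. Calr was -0.02 there with voom and 0.01 for EnzR EVs + HDL NPs against EnzR EVs with library size only.

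Depth limits Cd36 most (14 counts in EnzR EVs replicate 1), and 3 mice per group keep any exact test of a single gene at p = 0.10 or above.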
